A study of Danio rerio with 6 samples.

Results

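The miR-30 family was followed through early development of zebrafish primordial germ cells, the embryonic precursors of eggs and sperm. Its members were all rows of the deposited microRNA table named miR-30 with a letter from a to e, on either arm of the hairpin, which gave 6 of 134 mature microRNAs. They were the 5p arms miR-30b, miR-30c-5p, miR-30d and miR-30e-5p and the 3p arms miR-30e-3p and miR-30c-3p. The cells came from the AB strain and were picked by green fluorescence in 2 small RNA libraries per stage. The stages were 6 hours post fertilization (hpf), when the embryo is at shield stage, 11 hpf, when it has 3 somites, and 24 hpf, known as prim-5. All 6 libraries carry the cell type label primordial germ cells and the tissue label gonad. The labels do not say how the fluorescence was introduced, how many cells or embryos were pooled, or whether the replicates of a stage were collected separately, so p-values measure the spread between libraries, which may be technical.

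A microRNA hairpin is cut into a 5p and a 3p strand, and usually a single strand is loaded into an Argonaute protein while the other is degraded. The loaded strand pairs with target mRNAs mainly through its seed, bases 2 to 8 from the 5′ end. The miR-30 family is conserved in vertebrates, where its 5p arms are generally taken as the functional strands. In zebrafish embryos it is known for restraining Hedgehog signalling in early muscle through the receptor component smoothened, and in Xenopus for kidney development.

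The mature sequences show which members can act on the same targets and which can be confused in counting. They are given 5′ to 3′ as the deposited table has them, with the seed in capitals.
miR-30b: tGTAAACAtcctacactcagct
miR-30c-5p: tGTAAACAtcctacactctcag
miR-30d: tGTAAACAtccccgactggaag
miR-30e-5p: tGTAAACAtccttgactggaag
miR-30e-3p: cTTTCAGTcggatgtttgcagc
miR-30c-3p: cCGGGAGTgggatgtttgcgct
All 6 are 22 bases long. Members and arms are compared below in reads, and whether each sequence was captured equally well was not tested. The 4 members on the 5p side share the seed GTAAACA, which no other row of the table carries. The 3p arms have a seed each, TTTCAGT in miR-30e-3p and CGGGAGT in miR-30c-3p, and neither seed occurs in a second row. The 5p and 3p arms therefore have different seeds, although they come from the same hairpins.

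After the seed the 5p arms split into a pair of look-alikes. miR-30b and miR-30c-5p are identical over their first 18 bases and differ by an edit distance of 4. miR-30d and miR-30e-5p differ at only 2 positions, C12T and C13T, counted from the 5′ end with the miR-30d base first. The division of short reads between miR-30b and miR-30c-5p is therefore uncertain, since the counting rule for reads that match several names is not stated in the labels. For miR-30d and miR-30e-5p this holds only for reads that stop short of these 2 positions, or if mismatches were allowed in counting. The 3p arms share the block ggatgtttgc at positions 10 to 19 and differ by an edit distance of 7. The nearest row outside the family was at an edit distance of 9 or 10 from every member. In the RefSeq gene table for the assembly GRCz12tu, the genes mir30d and dre-mir-30b are adjacent entries, and mir30e-2 and dre-mir-30c lie on the same chromosome with 1 entry between them. The RefSeq table also holds mir30a, for which the deposited microRNA table has no row.

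The libraries held between 35718 and 78973 microRNA reads, of which the miR-30 family supplied 62 to 325. Over all 6 libraries it had 1108 reads, 539 of them from miR-30e-3p and 358 from miR-30b. miR-30d had 112, miR-30e-5p 63, miR-30c-3p 25 and miR-30c-5p 11. Libraries of the same stage differed by more than sampling noise at every stage, with a chi-square per degree of freedom of 16.0 at 6 hpf, 24.6 at 11 hpf and 38.2 at 24 hpf over the tested microRNAs. Read counts this small leave miR-30d, miR-30e-5p and miR-30c-5p with a large counting error, to which any spread between libraries adds. PCR copies of a molecule are counted as separate reads, so all intervals and floors cover counting error only.

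**Figure D1:**
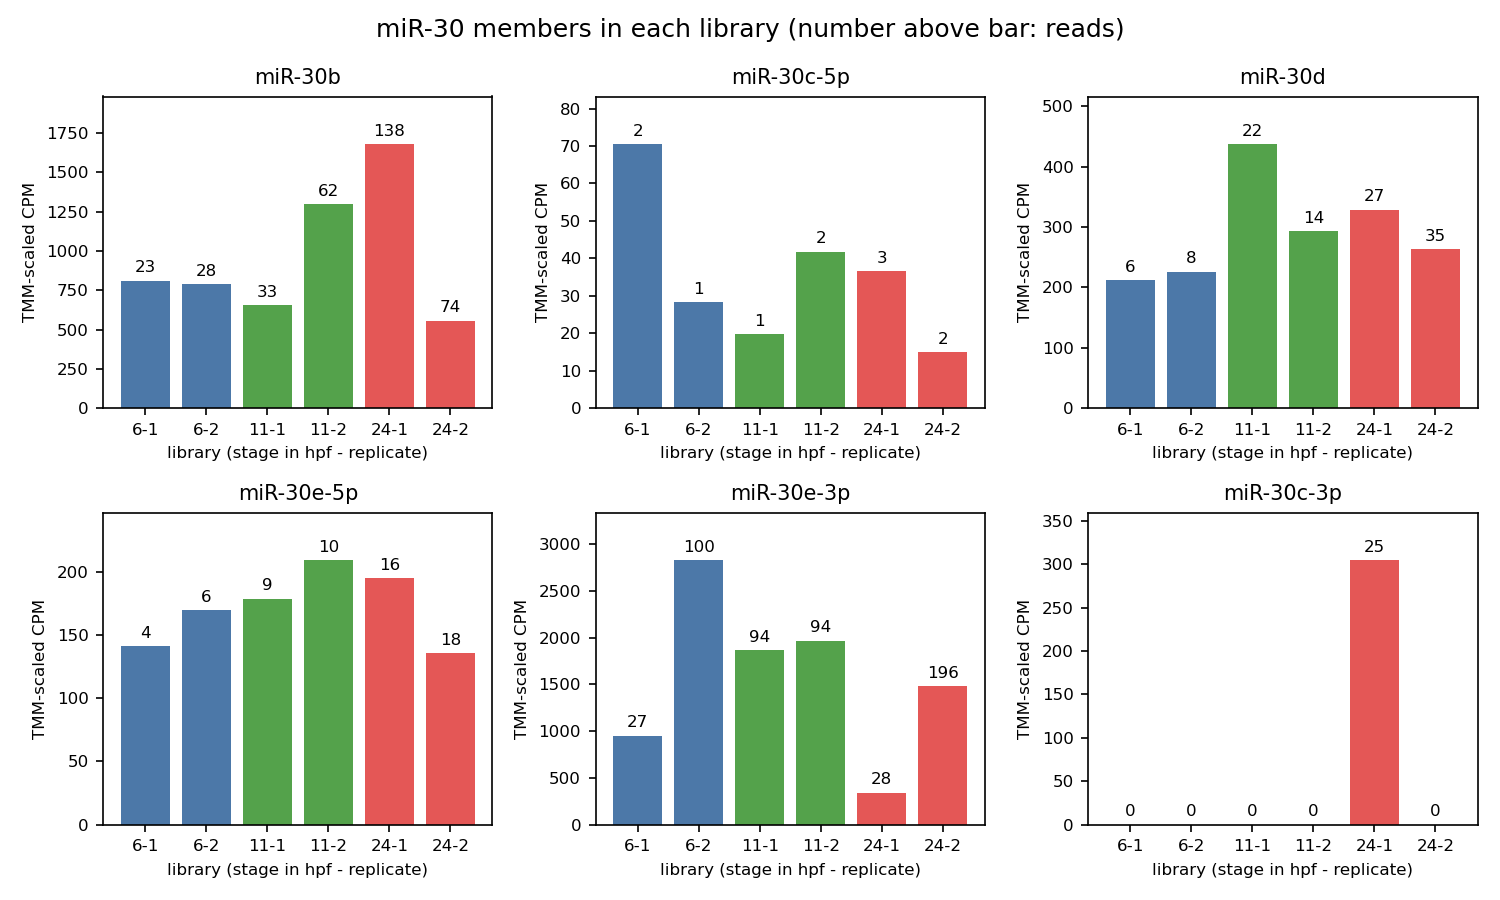
Level of each miR-30 member in each library, in CPM (counts scaled to a fixed total of microRNA reads) after TMM scaling (trimmed mean of M-values, which adjusts for library composition), on axes that start at 0 and differ between panels. Blue bars are 6 hpf, green 11 hpf and red 24 hpf, and the number above a bar is the read count; miR-30b and miR-30e-3p stand apart in opposite directions in the first 24 hpf library, with 138 and 28 reads, and miR-30c-3p has reads there alone.

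Among the 5p arms the order of abundance was the same in 6 of 6 libraries. miR-30b was the highest, followed by miR-30d, miR-30e-5p and miR-30c-5p. miR-30b exceeded miR-30d by 1.61 ± 0.67 on the log2 scale of reads plus 0.5 (SD, n = 6 libraries), with read ratios from 1.50 to 5.11. miR-30d exceeded miR-30e-5p by 0.72 ± 0.33 (SD, n = 6), with read ratios from 1.33 to 2.44. miR-30e-5p exceeded miR-30c-5p by 2.14 ± 0.71 (SD, n = 6). Each of these gaps was larger than its spread over the libraries, and this order was described after the values had been seen. The widest ratio of miR-30b to miR-30d, whose genes are adjacent in RefSeq, was in the first 24 hpf library and the narrowest in the first 11 hpf library.

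miR-30b, the leading carrier of the shared seed, had 23 and 28 reads at 6 hpf, 33 and 62 at 11 hpf, and 138 and 74 at 24 hpf. After TMM scaling its level was 801 ± 14.0 CPM at 6 hpf, 976 ± 453 CPM at 11 hpf and 1119 ± 794 CPM at 24 hpf (SD, n = 2 each). On this scale the 6 hpf libraries lay close together, while the first 24 hpf library was the highest of all 6 and the second the lowest. As a share of microRNA reads the second 24 hpf library, at 0.0937%, was above both 6 hpf libraries, at 0.0644% and 0.0439%. miR-30b ranked between 23 and 41 among the 134 microRNAs in the single libraries.

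miR-30d, its neighbour in the genome, had 6 and 8 reads at 6 hpf, 22 and 14 at 11 hpf, and 27 and 35 at 24 hpf. Its scaled level was 219 ± 10.3, 365 ± 102 and 296 ± 45.9 CPM at the 3 stages (SD, n = 2 each). Both 6 hpf libraries were lower than all 4 later ones. miR-30e-5p had 4 and 6 reads at 6 hpf, 9 and 10 at 11 hpf, and 16 and 18 at 24 hpf, or 155 ± 20.2, 194 ± 21.4 and 165 ± 41.8 CPM (SD, n = 2 each). On the TMM scale its libraries agreed within 1.44-fold at every stage, and the 24 hpf libraries spanned the range of the 6 hpf ones. As a share of microRNA reads, both 24 hpf libraries were above both 6 hpf libraries. With no scaling beyond library size, the median log2 difference over all 69 tested microRNAs was 0.73 for 24 against 6 hpf.

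miR-30c-5p was close to the limit of detection, with 2 and 1 reads at 6 hpf, 1 and 2 at 11 hpf, and 3 and 2 at 24 hpf. It did not pass the filter on low counts and was not tested. The ratio of its normalised reads was 0.495 for 24 against 6 hpf (95% counting interval 0.0962 to 3.19), 0.762 for 24 against 11 hpf (0.148 to 4.90) and 0.650 for 11 against 6 hpf (0.0870 to 4.85). A several-fold difference in either direction was not detectable at this depth.

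Most reads listed under miR-30e came from the 3p arm. The deposited table has no row for miR-30a. Reads of a mir30a arm, if its sequence is near-identical, could stand under a listed miR-30 arm such as miR-30e-3p, and this was not tested. The level of miR-30e-3p and the arm shares hold with that limit. miR-30e-3p had 27 and 100 reads at 6 hpf, 94 and 94 at 11 hpf, and 28 and 196 at 24 hpf. Its scaled level was 1889 ± 1325, 1917 ± 68.7 and 909 ± 804 CPM (SD, n = 2 each). The 11 hpf libraries were nearly equal, whereas those of 6 hpf differed 2.97-fold and those of 24 hpf 4.33-fold. miR-30e-3p exceeded miR-30b in 5 of 6 libraries, by 0.54 ± 1.51 on the log2 scale (SD, n = 6), a gap smaller than its spread. The exception was the first 24 hpf library, with 28 reads of miR-30e-3p and 138 of miR-30b.

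miR-30c-3p was read 25 times in the first 24 hpf library and 0 times in the other 5. It made up 0.0374% of microRNA reads in that library, while the count of 0 in the second 24 hpf library allowed a share of up to 0.0038% (3 reads). It was not tested. Taking 3 reads over a stage as the floor, the ratio of its normalised reads was 2.47 for 24 against 6 hpf and 3.81 for 24 against 11 hpf. No interval was put on the 25 reads, so these ratios are not lower bounds. Both values rest on the first 24 hpf library, and without it no stage had a read. In that library the 3p arm supplied 25 of 28 miR-30c reads, or 89.3% (exact 95% binomial interval 71.8 to 97.7%). Reads in the first 24 hpf library alone were not particular to miR-30c-3p. They were also found for let-7d-5p (365 CPM), miR-10d-5p (451 CPM) and miR-458-3p (353 CPM). The same held for miR-10d-3p, miR-124-3p, miR-135b-5p, miR-1388-5p, miR-153a-3p, miR-181a-2-3p, miR-18c, miR-20a-3p and miR-457b-5p. For miR-187, miR-499-5p and miR-9-4-3p, reads were found in the second 24 hpf library alone. Such microRNAs were thus more numerous in the first 24 hpf library than in the second.

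**Figure D2:**
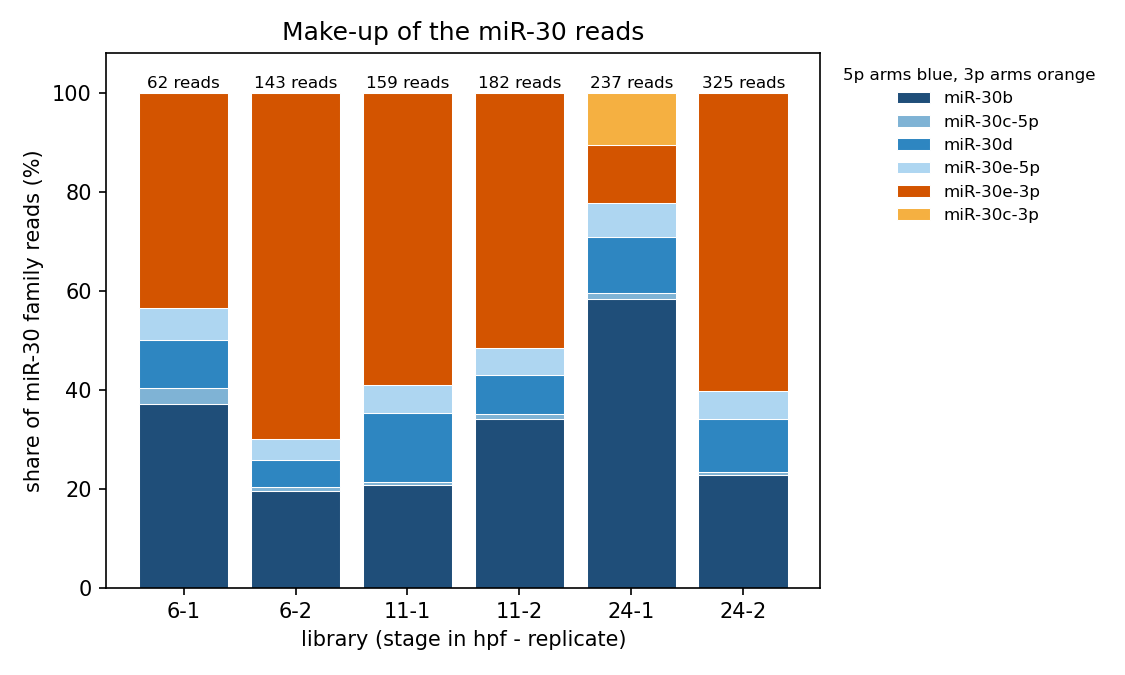
Share of each member in the miR-30 reads of each library, in percent, with the 5p arms in blues, the 3p arms in oranges and the number of miR-30 reads above each bar. The 3p arms make up over 40% in every library but the first of 24 hpf, where the 5p arms reach 77.6%.

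The make-up of the family's reads followed single libraries more than stages. The 5p arms supplied 56.5% and 30.1% of miR-30 reads at 6 hpf, 40.9% and 48.4% at 11 hpf, and 77.6% and 39.7% at 24 hpf. The 24 hpf libraries thus enclosed the values of all other libraries but 1, the second of 6 hpf. Among the 5p reads alone, miR-30b supplied 65.7% and 65.1% at 6 hpf, 50.8% and 70.5% at 11 hpf, and 75.0% and 57.4% at 24 hpf. miR-30b thus supplied at least 50.8% of the 5p reads in every library, and the stages overlapped.

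The 3p share of miR-30e reads was 87.1% in the first 6 hpf library (27 of 31 reads, exact 95% binomial interval 70.2 to 96.4%) and 94.3% in the second (100 of 106, 88.1 to 97.9%). It was 91.3% in the first 11 hpf library (94 of 103, 84.1 to 95.9%) and 90.4% in the second (94 of 104, 83.0 to 95.3%). At 24 hpf it was 63.6% in the first library (28 of 44, 47.8 to 77.6%) and 91.6% in the second (196 of 214, 87.0 to 94.9%). In read ratios, the 3p arm exceeded the 5p arm between 6.75-fold and 16.7-fold in 5 libraries and 1.75-fold in the first 24 hpf library. The intervals of the 24 hpf libraries did not overlap, so these libraries differed by more than counting error.

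**Figure D3:**
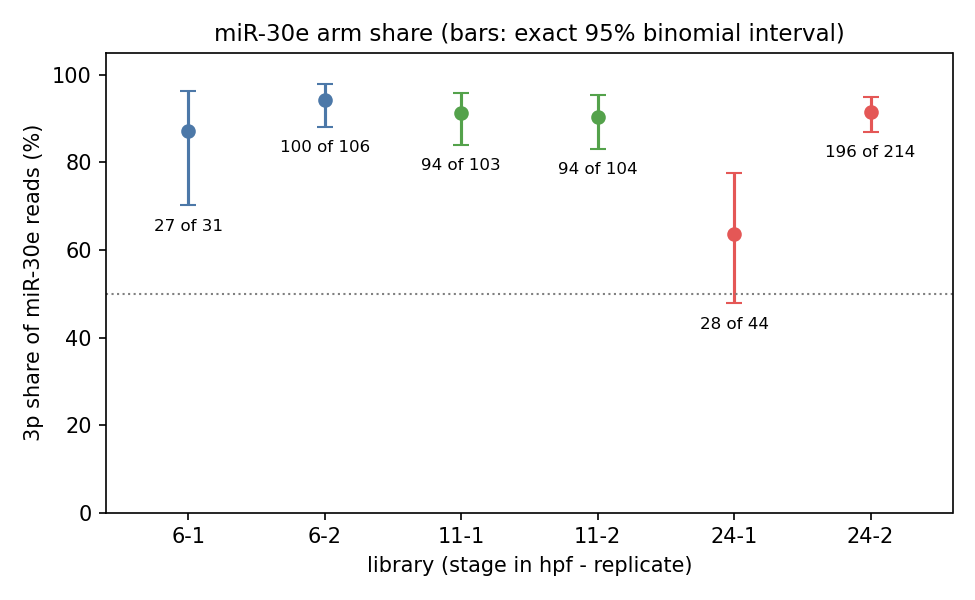
Percent of miR-30e reads that came from the 3p arm in each library, with exact 95% binomial intervals as bars and the 3p reads out of all miR-30e reads beside each point; the dotted line marks equal arms. Blue is 6 hpf, green 11 hpf and red 24 hpf; 5 libraries lie between 87.1% and 94.3% and the first of 24 hpf lies at 63.6%.

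Stage means of this share were 90.7% ± 5.12 at 6 hpf, 90.8% ± 0.62 at 11 hpf and 77.6% ± 19.8 at 24 hpf (SD, n = 2 each). The difference for 24 against 6 hpf was -13.1 percentage points (exact two-sided permutation p = 0.667, adjusted over 3 comparisons 1). The difference was -13.2 points for 24 against 11 hpf (exact two-sided permutation p = 1) and 0.11 points for 11 against 6 hpf (exact two-sided permutation p = 1). The smallest p that 2 against 2 libraries allow is 0.333, and the groups overlapped in all 3 comparisons. Without the first 24 hpf library the remaining one differed by 0.87 points from 6 hpf and by 0.77 from 11 hpf. The lower 24 hpf mean thus came from a single library.

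Other hairpins place the miR-30e value. Both arms were listed for 21 microRNAs, and 10 of these had at least 20 reads over both arms in all 6 libraries. The 3p arm was larger in all 6 libraries for 4 of the 10, namely miR-30e, miR-92a, miR-430a and miR-430b. The 5p arm was larger in all 6 for 5 of them, and miR-181a was mixed. The 3p share of miR-30e spanned 30.7 percentage points over the libraries, and that of miR-181a, from 4.76% to 58.1%, spanned 53.3. The other 8 spanned 21.2 points or less. Between the 24 hpf libraries, first minus second, the share differed by -28.0 points for miR-30e, by -20.3 points for miR-199 and by 3.85 points for miR-181a. In both 24 hpf libraries the other 7 hairpins had a 3p share of at most 6.05% or at least 99.2%, which leaves little room for such a difference in 1 direction. The part of the library as a whole in the miR-30e value was not tested.

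**Figure D4:**
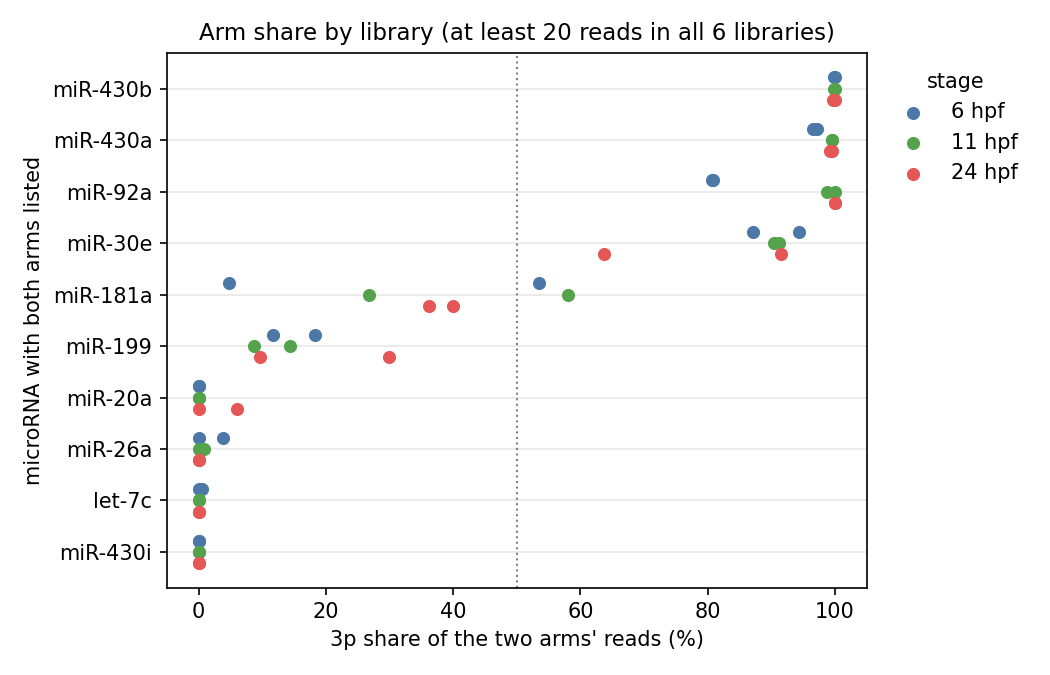
Percent of reads from the 3p arm for the 10 microRNAs with at least 20 reads over both arms in all 6 libraries, 1 point per library, coloured by stage and ordered by pooled share. miR-30e lies on the 3p side of the dotted line of equal arms in all 6 libraries, with 1 point of 24 hpf apart from the rest.

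The order of the stages in the family's total depended on the denominator. As a share of all microRNA reads, miR-30 made up 0.174% and 0.224% at 6 hpf, 0.351% and 0.378% at 11 hpf, and 0.354% and 0.412% at 24 hpf. Both 6 hpf libraries were below all 4 later ones. The miR-430 family, which supplies most reads in these cells, enters that denominator. With no scaling beyond library size, the 69 tested microRNAs had a median log2 difference of 0.43 for 11 against 6 hpf and 0.73 for 24 against 6 hpf. Of the microRNA reads outside miR-430, the family made up 1.40% and 2.38% at 6 hpf, 1.77% and 2.46% at 11 hpf, and 1.35% and 1.19% at 24 hpf. On this scale the 24 hpf libraries were the lowest of the 6. Against the library totals implied by the authors' RPM values, it had 5.92 and 11.8 RPM at 6 hpf, 11.1 and 20.2 RPM at 11 hpf, and 20.2 and 15.3 RPM at 24 hpf. The microRNA reads were only 0.317% (first 11 hpf library) to 0.571% (first 24 hpf library) of these totals. In cells picked in bulk, fewer cells that carry a microRNA and less of it per cell cannot be told apart.

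The test between stages covered 4 members, miR-30b, miR-30d, miR-30e-5p and miR-30e-3p, among 69 microRNAs that passed the filter. A change was called at an adjusted p under 0.05 in edgeR's quasi-likelihood test, adjusted over all 69. No member was called in any of the 3 comparisons, 0 had an unadjusted p under 0.05, and 0 were called by DESeq2. Over all tested microRNAs, 5.8% were called between 11 and 6 hpf, 0.0% between 24 and 11 hpf and 17.4% between 24 and 6 hpf. With 4 members, a count of 0 is not far from these shares. Between 24 and 11 hpf, 3 of the 69 were called by DESeq2, and the unadjusted edgeR p was under 0.05 for 14.

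**Figure D5:**
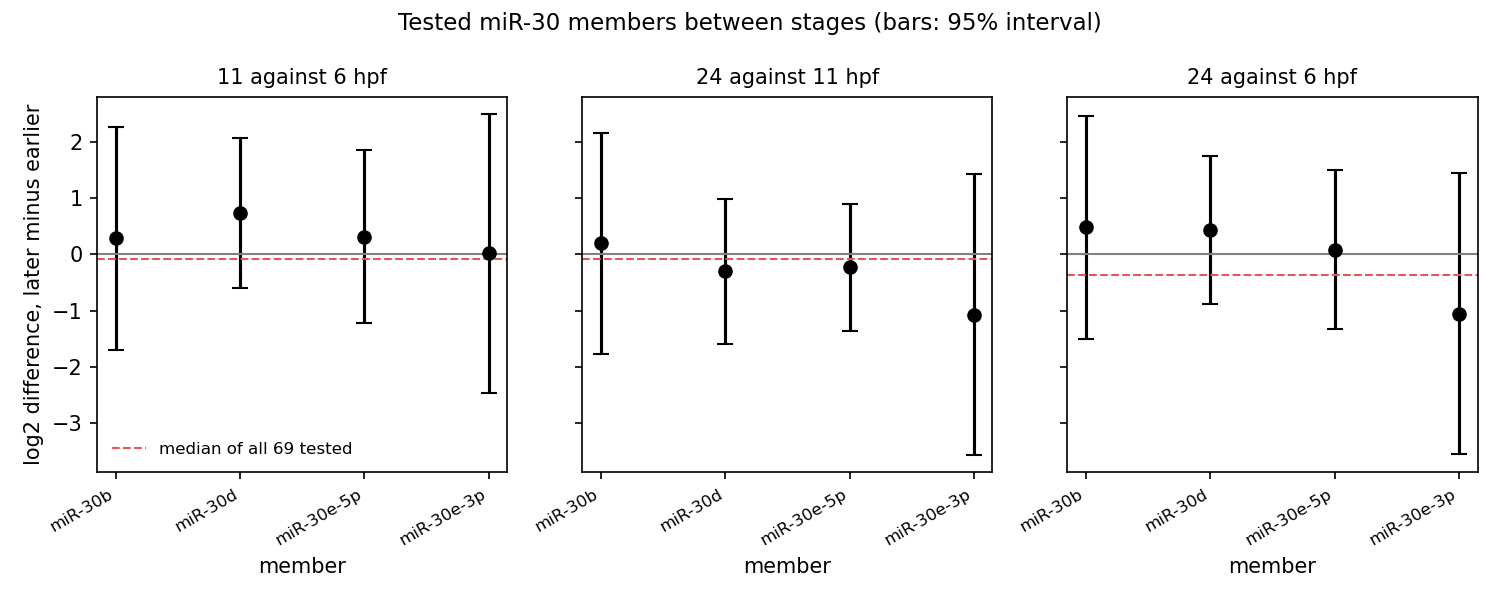
Log2 difference, later minus earlier stage, of the 4 tested members in each comparison, with 95% intervals as bars; the solid line marks no difference and the dashed line the median of all 69 tested microRNAs. All intervals include 0, and those of miR-30b and miR-30e-3p are wider than those of miR-30d and miR-30e-5p.

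For 24 against 6 hpf, miR-30b differed by 0.48 on the log2 scale (95% interval -1.50 to 2.45, edgeR adjusted p = 0.624). miR-30d differed by 0.43 (-0.88 to 1.75, edgeR adjusted p = 0.516) and miR-30e-5p by 0.08 (-1.33 to 1.50, edgeR adjusted p = 0.980). miR-30e-3p differed by -1.05 (-3.55 to 1.45, edgeR adjusted p = 0.424). In TMM-scaled CPM both 24 hpf libraries were higher than both 6 hpf libraries for miR-30d alone among the 4. On that scale 68.1% of tested microRNAs were without overlap in this comparison. As shares of microRNA reads, miR-30b was higher too, with 0.0644% and 0.0439% at 6 hpf and 0.206% and 0.0937% at 24 hpf. So was miR-30e-5p, with 0.0112% and 0.0094% at 6 hpf and 0.0239% and 0.0228% at 24 hpf. How many of all tested microRNAs were without overlap in shares was not counted. With no scaling beyond library size, the median log2 difference over all 69 was 0.73 for 24 against 6 hpf, beside -0.36 with TMM. miR-30e-3p overlapped on both scales. Without the first 24 hpf library the log2 difference was -0.29 for miR-30b and -0.13 for miR-30e-3p. Without the second it was 1.07 and -2.46.

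For 11 against 6 hpf, miR-30d had the largest difference of the members, 0.73 (95% interval -0.59 to 2.06, edgeR adjusted p = 0.524). miR-30b stood at 0.28 and miR-30e-5p at 0.31, and miR-30e-3p at 0.02 (-2.46 to 2.50). In TMM-scaled CPM, miR-30d and miR-30e-5p were higher in both 11 hpf libraries than in both 6 hpf libraries. That was 2 of 4 members, against 39.1% of tested microRNAs without overlap. As shares of microRNA reads, miR-30b and miR-30e-3p were higher too. How many of all tested microRNAs were without overlap on this scale was not counted. With no scaling beyond library size, the median log2 difference over all 69 was 0.43 for 11 against 6 hpf, beside -0.08 with TMM. For 24 against 11 hpf, miR-30e-3p stood at -1.07 (95% interval -3.57 to 1.43, edgeR adjusted p = 0.569). In TMM-scaled CPM both 24 hpf libraries were below both 11 hpf libraries. That was 1 of 4 members against 46.4% of tested microRNAs without overlap. As a share of microRNA reads the stages overlapped, with 0.207% and 0.195% at 11 hpf and 0.0419% and 0.248% at 24 hpf. The log2 difference was -0.13 without the first 24 hpf library and -2.48 without the second. The other members stood at 0.19 (miR-30b), -0.30 (miR-30d) and -0.23 (miR-30e-5p).

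The median difference of the 4 members was 0.30 for 11 against 6 hpf, beside -0.08 over all 69. It was -0.27 for 24 against 11 hpf, beside -0.08, and 0.26 for 24 against 6 hpf, beside -0.36. The median of all 69 depended on the scaling, and for 24 against 6 hpf it was -0.36 with TMM, 0.18 with RLE size factors, 0.73 with no scaling beyond library size and 0.88 with the totals implied by the authors' RPM. Measured from that median, miR-30d stood between 0.78 and 0.80 under the 4 scalings, miR-30b between 0.74 and 0.87 and miR-30e-5p between 0.43 and 0.45. miR-30e-3p stood between -0.77 and -0.42. A scaling factor shifts all microRNAs of a library alike, so values measured from the median change little with the scaling by construction. No member passed the test under any of the 4.

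The spread between libraries of a stage differed among members. At 24 hpf the libraries differed by 1.59 on the log2 scale for miR-30b and by 2.12 for miR-30e-3p, in opposite directions. For miR-30d the gap was 0.32 and for miR-30e-5p 0.52. Over the 59 tested microRNAs with reads in both 24 hpf libraries, the median gap was 0.57 and the upper quartile 0.93. At 6 hpf miR-30e-3p differed by 1.57, against an upper quartile of 0.68, while miR-30b differed by 0.04. The wide intervals of miR-30b and miR-30e-3p stand beside these gaps.

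The profiles nearest to each member were found among the 65 tested microRNAs outside the family, as the mean absolute difference of centred log2(TMM-scaled CPM + 10) over the 6 libraries. miR-92a-3p was nearest to miR-30e-5p, at 0.15, and to miR-30d, at 0.20, and miR-10a-5p was second for both, at 0.21 and 0.23. miR-19b-3p followed for miR-30d, at 0.28, and miR-430c-3p for miR-30e-5p, at 0.23. miR-25-3p was nearest to miR-30b, at 0.25, followed by miR-430c-3p at 0.30 and miR-125b-5p at 0.32. For the summed 5p arms the nearest were miR-25-3p at 0.17, miR-430c-3p at 0.25 and miR-92a-3p at 0.26. Medians over the 65 lay between 1.08 and 1.35 for these profiles.

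miR-30e-3p had no such near profile. Its nearest were miR-1 at 0.53, let-7i at 0.63 and miR-99 at 0.65, against a median of 1.47. The 5p arm of its own hairpin was at 0.77, with 12 of the 65 outside microRNAs nearer. miR-30d and miR-30e-5p, the look-alike pair, lay 0.24 from each other, and miR-30b lay 0.35 from miR-30e-5p and 0.54 from miR-30d. All profiles share the 6 libraries and their scaling factors, and the values are a description.

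microRNAs typical of other cell types were read in the same libraries, and their part in the miR-30 values was not tested. The muscle microRNAs miR-1 and miR-206-3p together had 353 and 283 CPM at 6 hpf, 417 and 355 at 11 hpf, and 718 and 581 at 24 hpf. They went opposite ways. miR-1, the profile nearest to miR-30e-3p, had 353 and 283 CPM at 6 hpf, 398 and 355 at 11 hpf, and 97.4 and 204 at 24 hpf, with the first 24 hpf library the lowest as for miR-30e-3p. miR-206-3p had 0 CPM in both 6 hpf libraries, 19.9 and 0 at 11 hpf, and 621 and 377 at 24 hpf. The list of 8 mesenchyme rows had 9979 and 10598 CPM at 6 hpf, 10356 and 6043 at 11 hpf, and 6356 and 5919 at 24 hpf. Most of that sum came from miR-143 and miR-199-5p, while miR-140-3p of the same list went the other way, with 106 and 28.3 CPM at 6 hpf, 79.5 and 105 at 11 hpf, and 1169 and 1010 at 24 hpf. The 3 sensory rows had 35.3 and 56.5 CPM at 6 hpf, 855 and 146 at 11 hpf, and 2131 and 2435 at 24 hpf. Most of the 24 hpf sum came from miR-183-5p and miR-182-5p. miR-96-5p of that list had 0 and 56.5 CPM at 6 hpf, 59.6 and 83.6 at 11 hpf, and 317 and 7.54 at 24 hpf. Neural rows ranged from 0 to 59.6 CPM in the 6 and 11 hpf libraries and were at 609 and 332 CPM at 24 hpf. These 24 hpf sums rested on different rows in the 2 libraries. There miR-9-5p had 219 and 15.1 CPM, miR-124-3p 390 and 0, and miR-9-4-3p 0 and 317. The 3 epidermis rows had 635 and 1667 CPM at 6 hpf, 239 and 167 at 11 hpf, and 231 and 136 at 24 hpf. The 3 endothelium rows had 599 and 763 CPM at 6 hpf, 795 and 146 at 11 hpf, and 183 and 452 at 24 hpf. In both sums the 6 hpf libraries were above the 24 hpf libraries. Of the epidermis rows, miR-200a-3p went the same way, with 529 and 84.8 CPM at 6 hpf and 0 and 67.9 at 24 hpf. The stages overlapped for miR-200b-3p, with 106 and 1583 CPM at 6 hpf and 231 and 60.3 at 24 hpf. miR-429a had at most 7.54 CPM at these stages. miR-122 of liver had 15 reads in the first 6 hpf library and miR-375 of pancreas 50 in the second 24 hpf library, with at most 1 read elsewhere. The blood microRNAs and the gonad microRNA miR-202 were looked for by name and matched none of the microRNAs listed. The same held for miR-133 of the muscle list, miR-219 of the neural list and miR-203, miR-205 and miR-141 of the epidermis list. Germ cell mRNA markers were not measured, so the cell type label could not be checked against them.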

How the data were processed

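The authors' deposited table gives whole-number read counts per mature microRNA, which were not normalised as far as the file header shows, and RPM values, which the authors scaled to a library total that the sources used here do not define. The submitters' processing notes name Bowtie 1.0.0-5 and danRer11. The library totals implied by the RPM values were taken from the count divided by the RPM. No column was without a sample.

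Differences between stages were fitted in edgeR 4.0.16 and R 4.3.3 (filterByExpr, minimum count 10, TMM, a quasi-likelihood fit of stage to all 6 libraries), and p-values were adjusted by Benjamini-Hochberg over all 69 tested rows. A standard error was the log2 difference over the root of F, or the counting error of the summed reads where that was larger. Scripts were tested on simulated data. Shares have exact (Clopper-Pearson) 95% intervals, and miR-30e arm shares were compared by exact permutation in SciPy 1.17.1. Named were all members and, per tested member and for the summed 5p arms, the 3 nearest profiles outside the family. The members, lists and tests were chosen with earlier results of these data known. Alternatives were other scalings, DESeq2 1.42.0, other filters, a robust fit, leaving out miR-430, only the compared stages, the replicate number as a term and each library left out. RefSeq coordinates are not given because the assembly differs from danRer11. Figures were drawn with matplotlib 3.10.9.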

Additional observations from a re-analysis of the deposited data

How the results depend on the processing

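No miR-30 member was called in any of the 3 comparisons under the 16 alternative settings, with 183 values for the 4 tested members. The lowest edgeR adjusted p was 0.098, for miR-30d between 24 and 6 hpf with the authors' library totals. Without a filter the lowest over all 6 members was 0.509. Leaving out miR-430 left 3 members tested, and the stricter filter left 2. DESeq2 gave no adjusted p for miR-30e-5p between 24 and 6 hpf. The count of all microRNAs called was less stable. Against 4, 0 and 12 for 11 against 6, 24 against 11 and 24 against 6 hpf, it was 5, 8 and 14 with RLE, 1, 3 and 19 with the authors' totals, 4, 0 and 16 with library size only, and 1, 0 and 11 without miR-430. It was 7, 3 and 19 with DESeq2, 3, 0 and 5 without a filter, 4, 1 and 10 with the stricter filter (mean of 100 reads), 4, 0 and 4 with the robust fit and 0, 0 and 28 with only the stages compared. Leaving out 1 library gave 0 to 3, 0 and 0 to 28.

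Several uncalled differences changed sign, and the cause was not tested. For 24 against 11 hpf, miR-30d stood at 0.0069 (RLE), 0.13 (library size only), 0.35 (authors' totals) and 0.0042 (DESeq2), and miR-30e-5p at 0.017 (RLE), 0.20 (library size only), 0.35 (authors' totals) and 0.019 (DESeq2). miR-30b stood at -0.027 without miR-430. For 24 against 6 hpf, miR-30e-3p stood at 0.32 (library size only) and 0.11 (authors' totals). With 1 library left out, the lone library of its stage being assumed to vary like the others, miR-30b ranged from -0.39 to 0.69 for 11 against 6 hpf, -0.59 to 0.86 for 24 against 11 hpf and -0.29 to 1.07 for 24 against 6 hpf. miR-30d ranged from -0.40 to 0.016 for 24 against 11 hpf. miR-30e-3p ranged from -0.56 to 1.22 for 11 against 6 hpf, from -2.48 to -0.13 for 24 against 11 hpf and from -2.46 to 0.47 for 24 against 6 hpf. miR-30e-5p ranged from -0.34 to 0.031 for 24 against 11 hpf and from -0.040 to 0.52 for 24 against 6 hpf.

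The family's share, as the log2 ratio of stage means, depended on the denominator. Outside miR-430 it was 0.16 for 11 against 6 hpf, -0.74 for 24 against 11 hpf and -0.58 for 24 against 6 hpf. Taking the 5p arms alone changes the numerator. Over all microRNA reads they gave 0.98 for 11 against 6 hpf, 0.43 for 24 against 11 hpf and 1.41 for 24 against 6 hpf. The 3p share of miR-30e for 11 against 6 hpf stood at -0.039 as a log2 ratio of the arms and, with 1 library left out, between -3.52 and 3.73 points. It ranged from -27.2 to 0.77 points for 24 against 11 hpf and from -27.1 to 0.87 points for 24 against 6 hpf. With the replicate number as a block, 3, 0 and 4 microRNAs were called and 0 of them were members. Libraries with the same number correlated in their deviations at 0.14, -0.22 and 0.09 for the 3 pairs of stages. With 2 libraries per stage, such values cannot show whether libraries of the same number were handled together, and this was not tested.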
